A study of Homo sapiens with 3 samples.

Results

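The SR splicing factors and their TRA2 relatives are described here through the C-to-U editing clusters that carried their names: SRSF1, SRSF2, SRSF3, SRSF5, SRSF6, SRSF7, SRSF10, SRSF11, TRA2A and TRA2B. A cluster was a member when the gene named in its label was among these 10 genes, whatever its edit level. This gave 65, 63 and 51 clusters of 14295, 15181 and 11367 in replicates 1, 2 and 3, so 179 of 40843 in all, in 10 of 9904 named genes. The libraries come from the human embryonic kidney line HEK293T, which the sample titles name, or more closely from its lentiviral packaging derivative HEK293XT, which the cell line labels name, and in which a doxycycline-induced fusion of the RNA-binding protein RBFOX2 with the cytidine deaminase APOBEC1 was expressed for 72 h. In this assay, called STAMP, the deaminase edits C bases near the places where its fusion partner sits on RNA. All 3 replicates carry the fusion, and no library without it was analysed here, so editing by the deaminase alone is part of every value. The labels give the genotype as WT and name both stable lines and a transient transfection. Expression of cell line markers was not measured, so the labelled line was not checked.

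SR proteins carry RNA recognition motifs and a domain rich in arginine and serine, and they help to define exons by binding enhancer sequences in them and recruiting the spliceosome. TRA2A and TRA2B are built alike and bind purine-rich exonic enhancers. Many genes of the family limit their own expression through an alternative exon or retained intron that brings in a premature stop, which sends the transcript to nonsense-mediated decay. RBFOX2 is itself a splicing regulator that acts mostly from introns next to alternative exons.

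The edit fraction used below divides the edited bases of a cluster by its covered C bases, that is, by every C base in every read there, and the edited-read share is reads with an edit over all reads of the cluster. Both were recomputed from the deposited counts. The 3 libraries were similar in what they gave to the member genes, which held 0.455%, 0.415% and 0.449% of all clusters and 0.607%, 0.530% and 0.563% of all edited bases. Member clusters held 14779, 13847 and 8714 reads, of which 339, 279 and 228 were edited, and 86237, 70867 and 47111 covered C bases. Replicate 3 was the thinnest. Positions are in the human build hg19, and a cluster's ends may be off by 1 base. Exon numbers are those of the deposited labels, where they rise with the genome coordinate, so that on the minus strand exon_0 lies at the 3' end of the gene.

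Every member gene had at least 1 cluster, and 9 of 10 had clusters in all 3 replicates, where 37.9% of all named genes did. The named genes are only those with a cluster in some replicate. Member clusters were also deeper than most, so neither this share nor the cluster counts below are matched for depth. SRSF5, which takes part in the choice of alternative splice sites, was the exception, with 1 cluster in replicate 1, 1 in replicate 2 and 0 in replicate 3. Summed over replicates, the gene with most clusters was SRSF1 with 24, the 45th of 9904 genes, followed by SRSF3 with 23, TRA2B with 22, SRSF6 and SRSF10 with 21 each and SRSF7 with 20. TRA2A had 17, SRSF11 had 16 and SRSF2 had 13, against a median of 3 per gene over all names. By edited reads the order was different. SRSF7, which has a zinc knuckle beside its RNA recognition motif, had 51, 44 and 56 edited reads in replicates 1, 2 and 3. SRSF1, the founding member of the family, had 68, 49 and 27. SRSF3, the smallest SR protein, had 47, 49 and 37. TRA2B had 38, 41 and 38, and SRSF2, a protein of nuclear speckles, had 50, 30 and 26. These 5 genes thus had more edited reads in each replicate than the other 5 in the same replicate, among which the highest was SRSF6 in replicate 1 with 28 and in the other replicates SRSF11 with 20 and 15. SRSF1, SRSF2, SRSF3, SRSF5, SRSF6 and SRSF11 had their lowest count in replicate 3, whereas SRSF7 had its highest there.

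**Figure D1:**
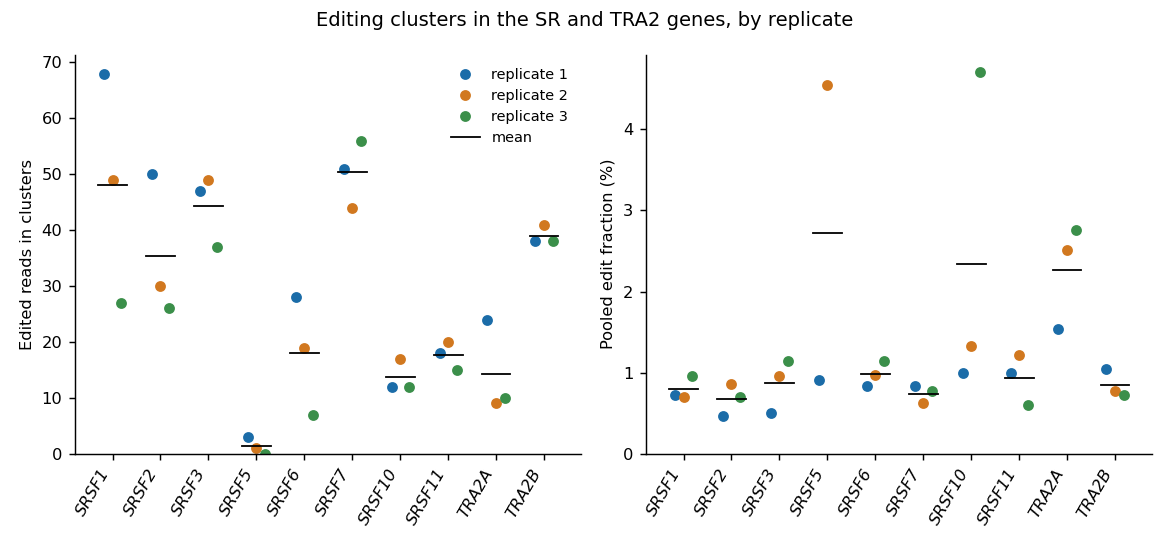
Edited reads in clusters (left) and pooled edit fraction in percent (right) of the 10 genes, with a point for each replicate and a line at the mean. The mean is over all replicates on the left and over the replicates that had clusters on the right. SRSF7, SRSF1, SRSF3, TRA2B and SRSF2 hold most edited reads, while TRA2A lies above most genes in edit fraction in each replicate and SRSF10 and SRSF5 each have a single high replicate.

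The edit fraction of a gene, pooled over its clusters, was close to 1% for most members. It was 0.719%, 0.703% and 0.961% for SRSF1, 0.461%, 0.859% and 0.696% for SRSF2, 0.497%, 0.964% and 1.15% for SRSF3, and 0.834%, 0.624% and 0.768% for SRSF7. It was 0.837%, 0.968% and 1.15% for SRSF6, 0.992%, 1.22% and 0.604% for SRSF11 and 1.04%, 0.773% and 0.722% for TRA2B. Neighbours among these 7 genes in the order of means overlapped, so the order of neighbours lies within the spread between replicates. Genes further apart in it need not overlap, and SRSF6 lay just above SRSF7, with a lowest value of 0.837% against a highest of 0.834%. TRA2A had 1.54%, 2.51% and 2.76% (mean 2.27% ± 0.644, SD, n = 3), and its lowest replicate lay above the highest of SRSF6, the next gene in the order. TRA2A clusters were also among the shallower ones, with median mean depths of 55.4, 31.6 and 22.4 reads, and the edit fractions that the method lets through are higher at low depth. Each cluster was also ranked by edit fraction among all clusters of its replicate in the same range of depth. The median percentile was 71.1, 72.9 and 93.9 for TRA2A and 60.4, 56.1 and 76.4 for SRSF6. Whether depth accounts for the TRA2A values was not tested. The cluster with the most edited bases was then left out of each gene in each replicate. TRA2A had 1.20%, 1.97% and 1.50% and SRSF6 had 0.993%, 1.24% and 2.10%. TRA2A stayed above SRSF6 in replicates 1 and 2. The overlap came from replicate 3, where the SRSF6 cluster left out had a low edit fraction of 0.539% and 742 of 1219 covered C bases. Its removal raised SRSF6 from 1.15%, so the overlap does not show that the TRA2A values rested on 1 cluster. SRSF10, which acts as a splicing repressor when it is dephosphorylated, had 0.995%, 1.33% and 4.71%. Its value in replicate 3 turned on a cluster in exon_6 with 30 edited bases on 3 edited reads of 56, and without it was 2.30%. SRSF5 had 0.904% and 4.55% in the replicates with a cluster, the latter from 1 edited base among 22 covered C bases in intron_5. With 3 replicates of 1 condition, no exact paired test between genes can give a two-sided p below 0.25, so none was made.

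Over the member genes together, the exon nearest the 3' end that had any cluster held 81.4%, 66.7% and 57.9% of the edited reads of replicates 1, 2 and 3. The same share was not computed over all genes, nor were exon length and depth taken into account, so it cannot be read as a trait of these genes. It was not the larger part everywhere. SRSF3 had 44.9% in replicate 2, SRSF10 had 47.1% and 41.7% in replicates 2 and 3, and SRSF5 had 0% in replicate 2. All clusters of SRSF2 were in exon_0, and exon_1 held 98.5%, 98.0% and 92.6% of the edited reads of SRSF1. In TRA2B the share of exon_0 was 89.5%, 53.7% and 39.5%, and in SRSF7 it was 51.0%, 34.1% and 28.6%, so for these genes editing further upstream made up more in replicates 2 and 3. Intronic labels were rare, with 5 of 179 clusters against 2.1% of all clusters. They comprised 3 in intron_0 of SRSF1, 1 in intron_9 of SRSF11 and 1 in intron_5 of SRSF5. The clusters of SRSF1 and SRSF2 carried a second gene name each. All 24 clusters of SRSF1 were also labelled with the clone-named gene RP11-159D12.5, and all 13 of SRSF2 with the microRNA gene MIR636, so the edits there cannot be assigned to a single gene.

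Clusters of the 3 replicates were joined into loci where they shared 1 base or more and the strand. Joining was by chain, so the clusters of a locus need not all share a base with each other. The member genes had 124 loci, of which 89 were found in 1 replicate, 20 in 2 and 15 in all 3 (12.1%, where 4.77% of all 33244 loci were). The 15 loci lay in 7 genes and held 148, 128 and 131 edited reads, which is 43.7%, 45.9% and 57.5% of the edited reads of all member clusters. Their mean edit fractions ran from 0.532% to 2.82% with a median of 1.06%, and their lengths from 45 to 225 bases. They are given gene by gene.

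SRSF7 had 4 of them among 10 loci, the most of any member. The longest, chr2:38972062-38972286 in exon_0, had edit fractions of 0.772%, 0.803% and 0.894% from 21, 15 and 16 edited reads. Its 3 values differed little, with a mean of 0.823% ± 0.0632 (SD, n = 3). The locus chr2:38977157-38977336 in exon_12 was as even, at 0.561%, 0.612% and 0.539%. In exon_10 the locus chr2:38976307-38976501 had 1.55%, 1.07% and 0.861%, and the locus chr2:38976772-38976831 had 0.357%, 0.357% and 0.882%. Replicate 3 was thus the lowest at the first of these neighbours and the highest at the second.

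SRSF1 had 3 loci in all replicates among 14, all in exon_1. The locus chr17:56081097-56081186 had 0.447%, 0.504% and 0.746%. The locus chr17:56081772-56081936 had 1.12%, 1.05% and 1.62%, above the first in every replicate. At chr17:56082372-56082566 the values were 0.973%, 1.47% and 0.738%, the one of replicate 2 from 2 edited reads of 185. SRSF2 had 2 such loci among 7. That at chr17:74730993-74731157 had 0.924%, 1.07% and 1.01%, and that at chr17:74730273-74730377 had 0.615%, 1.52% and 1.65%. Between them lay the most deeply read member cluster, chr17:74730408-74730497 in replicate 1, with a mean depth of 614 reads and an edit fraction of 0.317%, the lowest of all 179.

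TRA2B had 2 loci in all replicates among 16, side by side in exon_0. The locus chr3:185635315-185635434 had 1.35%, 1.46% and 0.858%, and the locus chr3:185635465-185635509 had 0.456%, 0.945% and 0.908%. TRA2A had 1 among 12, chr7:23544610-23544819 in exon_0, with 2.31%, 2.51% and 3.65% from 7, 4 and 3 edited reads. This was the highest mean of the 15, at 2.82% ± 0.723 (SD, n = 3), at mean depths of 47.2, 35.6 and 22.4 reads. SRSF10 had 1 among 18, chr1:24293425-24293544 in exon_0, with 1.48%, 2.47% and 1.27% from only 1, 4 and 2 edited reads. Its clusters in replicates 1 and 3 shared no base and were joined only through that of replicate 2, so no single site recurred in all replicates there. SRSF3 had 2 among 15. The locus chr6:36569785-36569934 in exon_12 had 0.498%, 0.618% and 0.672%, while the locus chr6:36567749-36567838 in exon_6 had 0.967%, 1.63% and 2.70%.

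For the genes without a locus in all replicates, the one with the most edited reads is given. In SRSF6, whose clusters covered 17 loci, it was chr20:42090064-42090123 in exon_12, with 9 edited reads over 2 replicates and edit fractions of 3.42% to 4.69%. In SRSF11 the loci chr1:70716547-70716621 and chr1:70716757-70716861 in exon_28 tied at 10 edited reads over 2 replicates, with mean edit fractions of 0.879% and 1.19%. In SRSF5 it was chr14:70238377-70238406 in exon_8, with 3 edited reads of 60 in replicate 1.

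**Figure D2:**
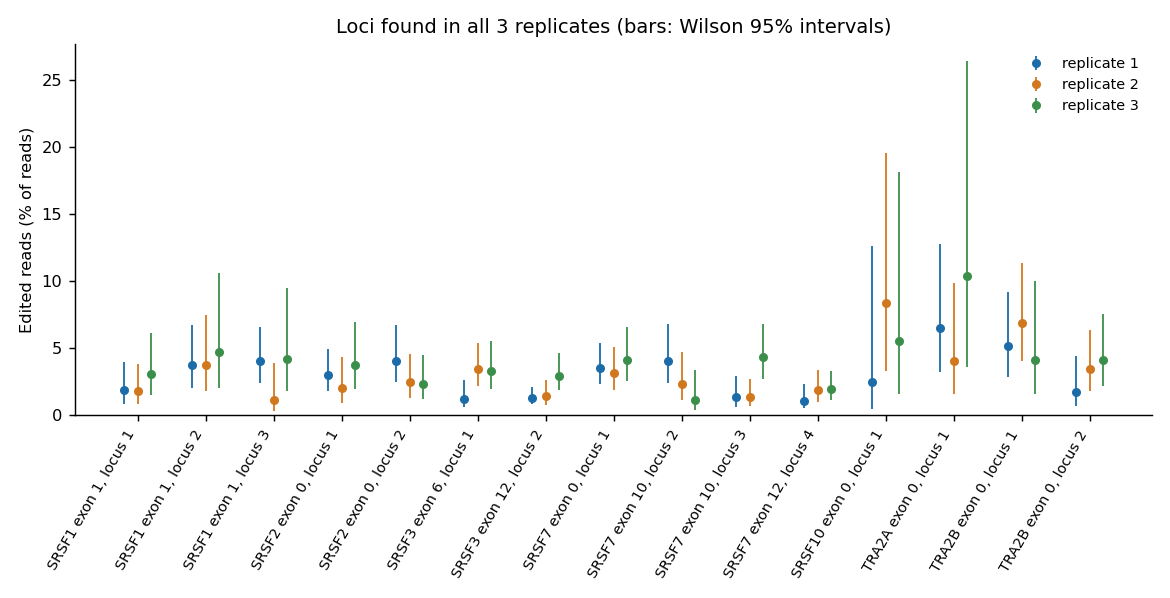
Edited-read share, in percent of reads, at the 15 loci found in all 3 replicates, with a point and a Wilson 95% interval for each replicate; loci of a gene are numbered by coordinate. The points run from 1.07% to 10.3%, with the widest intervals at SRSF10 and TRA2A, where few reads cover the locus.

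The edited-read share had wide counting intervals and ordered some of the 15 loci differently. TRA2A had the highest mean by both measures. The SRSF3 locus in exon_6 had a mean edit fraction of 1.77%, above the median of 1.06% over these loci. Its mean edited-read share of 2.63% lay below their median of 2.93%. At the long SRSF7 locus in exon_0 it was 3.53%, 3.12% and 4.10%, with Wilson 95% intervals of 2.32% to 5.33%, 1.90% to 5.08% and 2.54% to 6.56%. At the TRA2A locus it was 6.48%, 4.0% and 10.3%, the last with an interval of 3.58% to 26.4% from 29 reads. Intervals cover counting error only.

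The share of member clusters found in all replicates was above that of all clusters, and the distance was smaller above a minimum read depth. It was 14 of 65 (21.5%, Wilson 95% interval 13.3% to 33.0%), 15 of 63 (23.8%, 15% to 35.6%) and 15 of 51 (29.4%, 18.7% to 43.0%), where 10.6%, 9.86% and 13.1% of all clusters were. Over the replicates together it was 44 of 179 (24.6%), against 11%. Member clusters were deeper, with median mean depths of 84.9, 115 and 83.4 reads against 25.1, 24.7 and 21.1. Among loci whose deepest cluster had a mean depth of at least 50 reads, 13 of 89 member loci (14.6%) were found in all replicates, against 1149 of 7911 (14.5%) over all genes. Counted over clusters of that depth in every replicate, the mean share was 31.5% for the members and 23.2% for all. When the overlapping clusters of the other replicates could have any depth, members had 25%, 27.1% and 42.4%. All clusters then had 25.6%, 23.8% and 30.6%, so members were not above them in replicate 1 and the distance was largest in replicate 3. By loci the member share was thus near the background, although members were still deeper above this minimum, with a mean of the median depths of 143 reads against 91.0 for all.

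The edited reads of the same interval were compared between replicates where a cluster had identical ends in a pair of them. Of 5 such member pairs, 0 passed Fisher's exact test after Benjamini-Hochberg adjustment over the 1518 pairs of the series, where 0.395% were called. At an unadjusted p under 0.05 there was 1 member pair, and 51 of the 1518 pairs of the series. The member pair was in exon_10 of SRSF7 at chr2:38976787-38976831, with 6 edited reads of 445 in replicate 1 and 17 of 395 in replicate 3 (exact p = 0.0104, adjusted p = 0.736). With clusters matched by overlap, 0 of 65 member pairs passed, where 12 of 8698 pairs of the series did. Calls were so rare in the series that 0 among few member pairs is near its share and no trait of these genes. By overlap, 5 member pairs had an unadjusted p under 0.05, a count not made for the series.

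A group of member clusters stood apart in how the reads covered them. In most clusters the covered C bases per C base were close to the mean read depth, with a median ratio of 97.7% over the members. In 28 of 179 member clusters (15.6%) they were under 25% of it, which was true of 2.34%, 2.96% and 1.94% of all clusters in replicates 1, 2 and 3 and of 2.46% over all 3. Only 1 further member cluster lay between 25% and 50%. The limit of 25% was chosen after the values were seen. Among clusters with a mean depth of at least 50 reads the counts were 22 of 133 (16.5%), against 6.57% of all. These 28 clusters held 8.85%, 17.2% and 12.3% of the members' edited reads. The reads and the mean depth given for such a cluster thus exceeded its covered C bases per C base. The edited-read share is over reads and the edit fraction over covered C bases, so these measures can order such clusters differently.

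**Figure D3:**
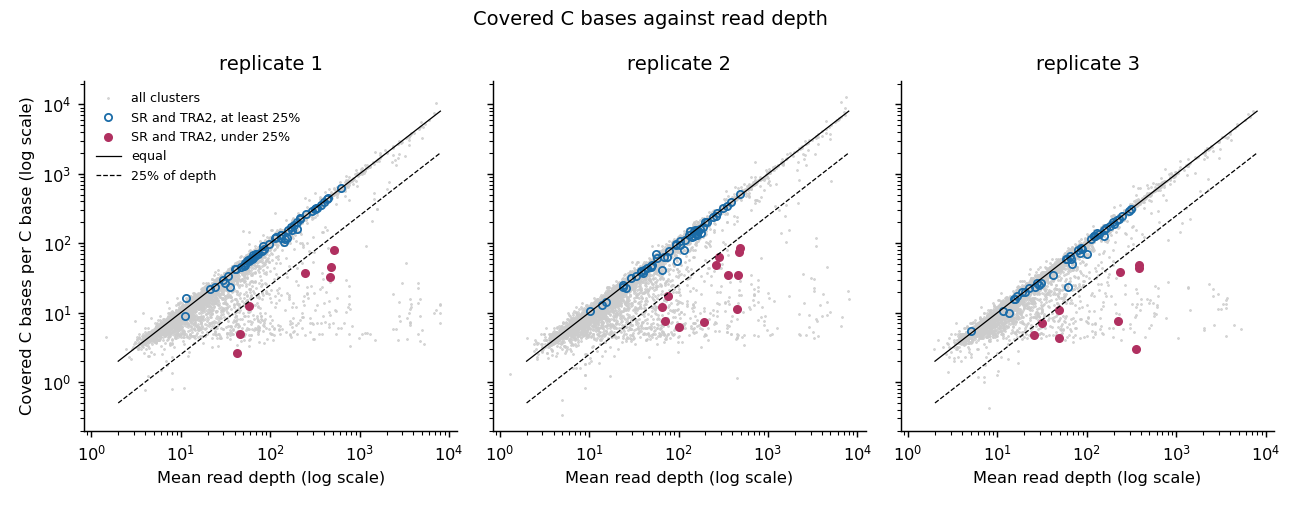
Covered C bases per C base against mean read depth, both on log scales, for all clusters (grey) and member clusters (coloured) in each replicate; the solid line marks equality and the dashed line 25% of depth. Most member clusters follow the solid line, while 7, 12 and 9 lie under the dashed line in replicates 1, 2 and 3.

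SRSF3 held 10 of the 28, and they were all of its clusters in exon_6. Their mean depths ran from 356 to 515 reads, and their covered C bases per C base from 3 to 85. Pooled over the exon, the ratio was 12.2%, 13.2% and 9.77% in the 3 replicates (mean 11.7% ± 1.74, SD, n = 3). In exon_12 of the same gene it was 102%, 90.1% and 92.3%, so the ratios of these exons did not overlap. Exon_6 also had the higher edit fraction in every replicate, at 0.756%, 1.38% and 2.33%, against 0.449%, 0.703% and 0.750% in exon_12. Its edited-read share, by contrast, was 0.861%, 1.37% and 1.56%, below the 1.18%, 1.54% and 2.97% of exon_12 in each replicate. The order of these exons therefore depended on which denominator was used.

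SRSF7 held 5, all in exon_10 and in all 3 replicates, and only in the part of it with lower coordinates. Clusters from chr2:38975992 to chr2:38976501 had ratios of 3.33% to 21.9%, and those from chr2:38976697 to chr2:38976831 had 96.0% to 99.9%. The edit fraction of the first stretch was 1.55%, 1.04% and 0.949%, and that of the second 0.357%, 0.357% and 0.813%, so the stretch with few covered C bases was higher in each replicate. Its edited-read share was 4.05%, 1.67% and 0.818%, against 1.35%, 1.37% and 2.87% in the second, so by that measure the order turned in replicate 3. TRA2B held 3, the whole of its exon_12 and 1 in each replicate, at different positions between chr3:185649349 and chr3:185649633. Their ratios were 21.5%, 10.7% and 8.67%, and their edit fractions 3.54%, 7.89% and 5.88% rested on 2, 3 and 1 edited reads. Exon_0 of TRA2B had ratios of 106%, 111% and 109% and edit fractions of 1.07%, 1.16% and 0.901%. By edited-read share exon_12 was the lower in each replicate, at 3.23%, 4.05% and 2% against 3.48%, 4.85% and 4.07%.

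The other 10 were spread over SRSF10 with 5 in exon_2, exon_4 and exon_6, SRSF11 with 1 in exon_10 and 1 in intron_9, and SRSF2, SRSF5 and TRA2A with 1 each. SRSF1 and SRSF6 had 0. Alternative exons with a premature stop are known in this family, but which of these intervals are such exons was not tested, since an annotation of hg19 was not used here.

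**Figure D4:**
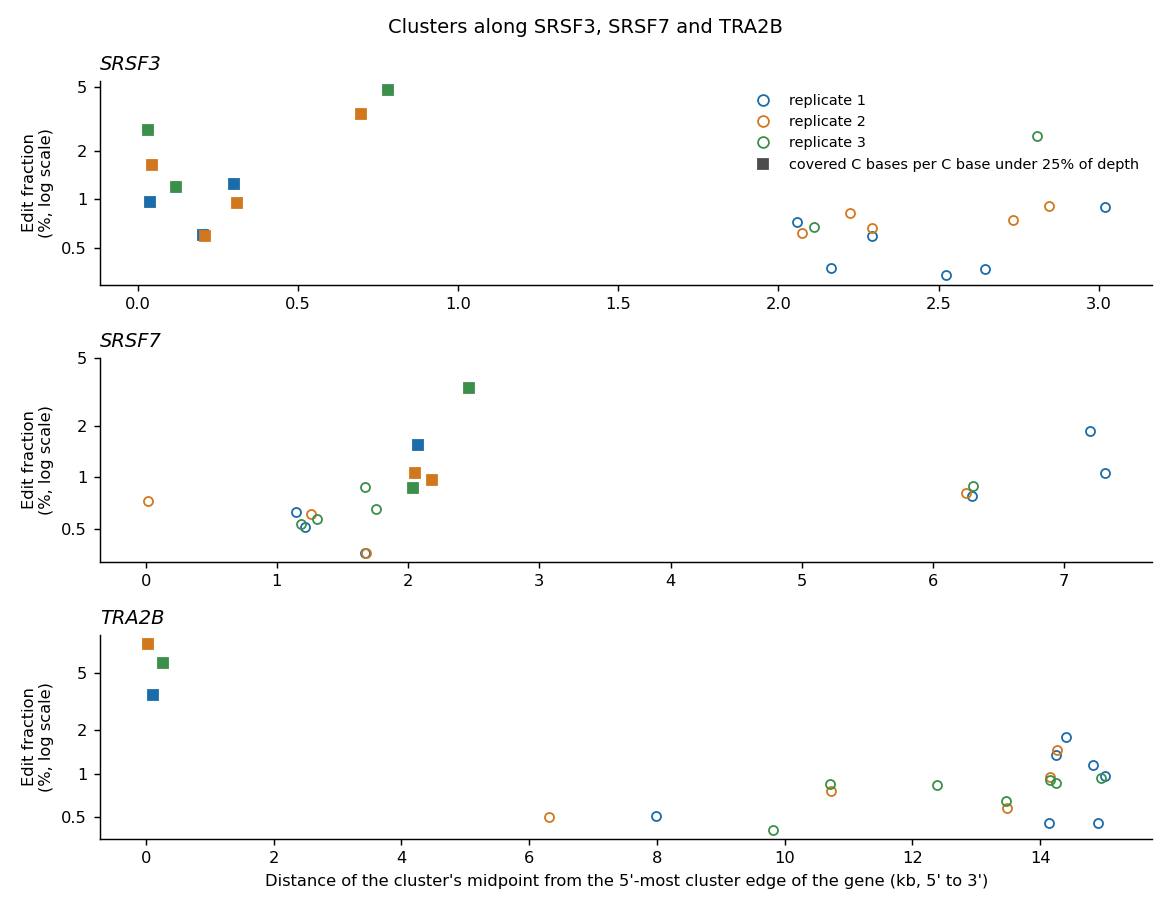
Edit fraction of each cluster (percent, log scale) along SRSF3, SRSF7 and TRA2B, by the distance of its midpoint from the 5'-most cluster edge of the gene in kb, coloured by replicate; filled squares mark clusters whose covered C bases per C base were under 25% of depth. The squares form a single stretch in each gene and include its highest edit fraction.

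Across all members the pooled edit fraction was 0.713%, 0.834% and 0.921% (mean 0.823% ± 0.104, SD, n = 3), against 0.939%, 0.934% and 0.997% over all clusters. Because fractions fall with depth, each cluster was also placed among all clusters of its replicate in the same depth class. The median percentile of the members was 60.2, 63.5 and 61.6 (mean 61.8 ± 1.68, SD, n = 3), where the middle cluster has 50. At a mean depth of at least 50 reads, the median member cluster had 0.886%, 0.925% and 0.861%, against 0.774%, 0.794% and 0.783% over all. The clusters with few covered C bases moved with this. Their median percentile was 88.6, 93.2 and 98.3, where all such clusters of the series had 96.6, 95.9 and 96.3, and that of the other member clusters was 57.4, 51.8 and 58.3. When classes were made from covered C bases per C base, the member clusters with few covered C bases were at 64.8, 62.7 and 60.6. All such clusters of the series were at 44.6, 47.5 and 45.5. The other member clusters were at 53.2, 56.5 and 62.3, above the former in replicate 3. Without the clusters with few covered C bases, the pooled edit fraction of the members was 0.686%, 0.779% and 0.809%. All clusters with a ratio of at least 25% had 0.932%, 0.927% and 0.989%, which is higher. These pooled values are not matched for depth. At a mean depth of at least 50 reads, with all ratios kept, members had 0.666%, 0.784% and 0.770%. All clusters of that depth had 0.700%, 0.699% and 0.710%, so members were lower only in replicate 1.

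**Figure D5:**
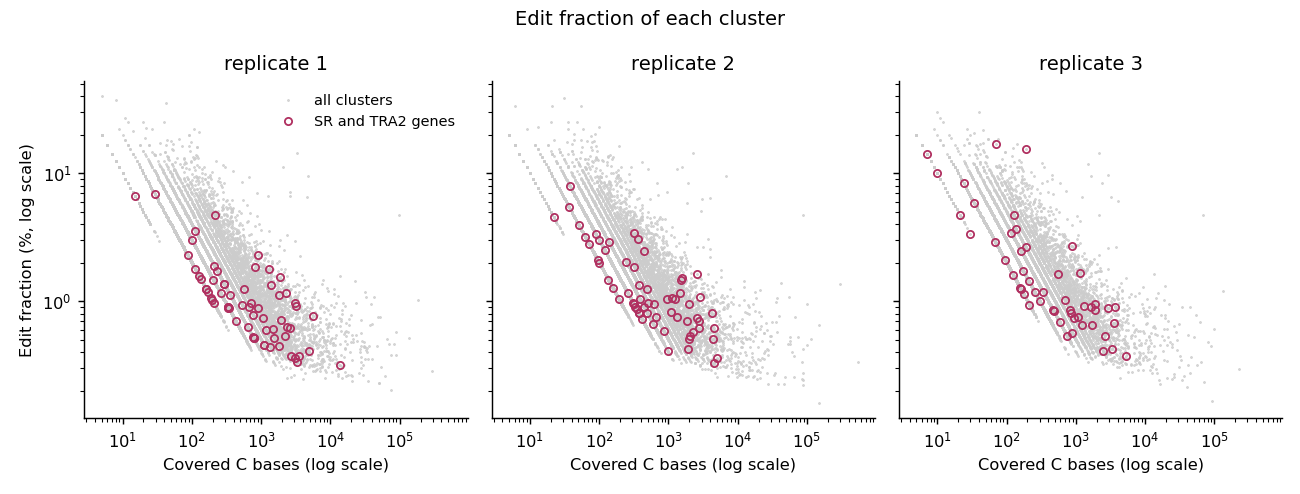
Edit fraction (percent) against covered C bases, both on log scales, for all clusters (grey) and member clusters (circles) in each replicate; the grey diagonals are clusters with the same number of edited bases. Member clusters follow the slope of the whole series, and few lie along its upper edge.

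Member clusters were poorer in C than most, with 16.3, 16.3 and 16.1 C bases per 100 bases against 19.2, 19.7 and 20 over all clusters. An edited read carried 1.81, 2.12 and 1.90 edits on average, against 1.59, 1.67 and 1.66. Clusters resting on 1 edited read made up 30 of 179 (16.8%), where 30.5% of all clusters did. At a mean depth of at least 50 reads the mean share over replicates was 11.1% ± 4.84 (SD, n = 3) for the members and 9.61% ± 1.12 (SD, n = 3) for all clusters, so members were not lower there. The highest edit fractions among members were of that sparse kind or close to it. In replicate 3 a cluster in exon_0 of TRA2A had 16.9% from 3 edited reads of 8, the SRSF10 cluster in exon_6 had 15.5% with 10 edits per edited read, and a cluster in exon_10 of TRA2A had 14.3% from 1 edited base among 7 covered C bases.

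Other genes of the pathway were counted from lists of related genes. Of the remaining SR protein genes SRSF4, SRSF8, SRSF9 and SRSF12, all 4 had a cluster, 3 had clusters in all replicates, and SRSF4 and SRSF8 had a locus in all 3. SRSF4 had edit fractions of 0.936%, 0.989% and 0.903%, and SRSF8 had 1.42%, 2.26% and 2.57%. Of 25 genes of SR-related proteins, which carry arginine and serine repeats or act beside SR proteins, 23 had a cluster, 15 had clusters in all replicates and 6 had a locus in all 3. The 6 were RSRC2, LUC7L2, LUC7L3, BCLAF1, U2AF2 and ZRANB2. U2AF2, the large subunit of the factor that recognises the polypyrimidine tract, had the lowest edit fractions of the 6 in every replicate, at 0.445%, 0.712% and 0.629%. LUC7L2, a U1 snRNP-associated protein, had 1.19%, 1.06% and 1.63% from 8, 12 and 10 clusters. Clusters with few covered C bases made up 18.1%, 19.4% and 10.7% of the clusters of the SR-related genes and 0 of those of the 4 other SR genes. Of 12 genes for SR protein kinases, a phosphatase and import receptors, 10 had a cluster, 6 had clusters in all replicates and only CLK1, a kinase that phosphorylates SR proteins in the nucleus, had a locus in all 3. Its edit fractions were 2.16%, 0.921% and 2.96%.

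The genes most like each member were sought among the 3754 with clusters in all replicates, by the distance over log2 edit fraction and log2 covered C bases of the 3 replicates. The gene closest to SRSF7 was RPS17L, tied with a clone-named gene, at 0.443 log2 units. TRA2B was closest to LAPTM4B at 0.489 and NOP58 at 0.499, and SRSF6 to USP1 at 0.558 and the splicing factor gene SF1 at 0.633. SRSF3 was closest to DNAJA1 at 0.658, and SRSF11 to PCBP1 at 0.653. Apart from the names that share their clusters, SRSF1 was closest to PTMA at 0.624 and SRSF2 to HNRNPA2B1 at 0.678. TRA2A, at 0.960 from RBM26, and SRSF10, at 1.13 from PSMC3IP, had no neighbour as near.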

How the data were processed

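RNA of 3 replicates of HEK293T cells (HEK293XT in the cell line labels) with the RBFOX2-APOBEC1 fusion was sequenced by the authors, who called edited positions with SAILOR and clusters with FLARE (30-base windows, adjusted p of 0.1, merging distance of 15 bases), each replicate by itself. The submitters' processing notes name STAR and hg19 with no version. The deposited counts (edited bases, covered C bases, reads, edited reads, C bases) are unscaled whole numbers per cluster. The fraction of edited bases deposited by the authors was recomputed from the counts in all 40843 clusters. The mean read depth is a coverage signal deposited by the authors, unscaled, and equals a whole number of bases over length plus 1 in 99.4% of clusters. The score deposited by the authors is the value of a negative binomial distribution function. Only clusters that passed were analysed, so neither the depth of each library nor removed windows are known from them, and low read numbers limit precision. The paper states a sequencing depth for the experiment but not for each library.

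Calculations used SciPy 1.17.1, pandas 2.3.3 and NumPy 2.4.6 in Python 3.11.15, and plots matplotlib 3.10.9. Values are given per replicate and as mean and SD over 3 replicates, and shares with Wilson 95% intervals. The study calls the replicates biological, and the labels name no separate cultures. Fisher's exact test (two-sided, adjusted p of at most 0.05) was run over all pairs of identical clusters of the series. The 10 genes are all named. Loci are named where found in all 3 replicates, and otherwise by most edited reads. The 3 genes nearest to a member were ranked over 6 values. Scores of at least 0.95 and 0.99, a depth of at least 50, overlaps of 50% or identical ends, at least 2 edited reads, other depth classes and leaving out each replicate were tried. The members and gene lists were chosen with earlier results of these data known. The low-coverage group and the values without the leading cluster were defined after the values were seen. Scripts were tested on simulated data. Sequences of the clusters were not analysed here.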

Additional observations from a re-analysis of the deposited data

How the results depend on the processing

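Of 107 alternatives over 22 values, 28 moved the value. To move means to change by more than the spread between replicates or, for counts, by more than 1.5 times. Omission of a replicate gave 66 of the 107, of which 63 stayed the same. Dropping 1 of 3 values shifts their mean by less than their SD, so these 63 are no evidence of robustness. The 3 that moved set sharing between both remaining replicates against sharing among all 3. Of the other 41, 25 moved, many by a change of unit from edit fraction to edited-read share. The 59.7 member clusters per replicate became 37.3 at a minimum score of 0.99 and 57 to 64 when a replicate was left out. The pooled edit fraction of 0.823% became 1.83% as a mean over clusters, where sparse clusters weigh as much as deep ones, and was 0.774% to 0.878% without a replicate. The mean share of member clusters found in all replicates, 24.9% beside 11.2% for all clusters, was 15.1% beside 5.30% with an overlap of 50%, 31.5% beside 23.2% at a depth of at least 50 and 29.0% beside 13.8% with at least 2 edited reads. With identical ends it was 0 beside 1.30%. When a replicate was left out, the share found in both others was 34.0% to 41.4%. The median percentile of 61.8 was 66.4 with 20 depth quantiles, 55.9 at a score of 0.99, 57.7 with classes of covered C bases per C base and 60.9 to 62.6 without a replicate. The median over the named loci of 1.06% was 2.93% as an edited-read share, and 0.968% to 1.07% without a replicate. The 9.33 clusters per replicate with few covered C bases were 3.67 at a limit of 10% and 8 to 10.5 without a replicate. No paired analysis was possible because there is 1 condition and no second group, and comparisons of exons or genes within replicates cannot give an exact two-sided p below 0.25. Most clusters rest on few edited reads, so differences between loci within the counting intervals were not detectable at this depth.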
